A study of Mus musculus with 16 samples.

Results

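All 16 RNA libraries of the series were compared by their genotype label, to find genes whose RNA shifted the same way in 4 liver cell types. The 16 of 16 libraries comprised 4 each of endothelial cells (EC), hepatic stellate cells (HSC), Kupffer cells (KC) and hepatocytes (HEP), with 2 libraries labelled KO and 2 labelled WT in each cell type (n = 2 per group, 8 against 8 in all). The cells came from livers of adult, unchallenged mice, which were 8-week-old males by the study's methods unless it says otherwise. The KO label stands for an endothelial deletion of Zeb2, made with a tamoxifen-inducible Cre recombinase under the Cdh5 promoter, floxed Zeb2 alleles and a reporter in the Rosa26 locus. WT mice were Cre-negative littermates, so that both labels share the floxed background, and both received tamoxifen at 2 mg per day for 5 days. The Cdh5 promoter is active in endothelium, so that HSC, KC and HEP libraries labelled KO come from livers whose endothelial cells, not these cells, were targeted. Hepatocytes were separated by centrifugation, and the other cells were sorted by vitamin A fluorescence, F4/80 or a pan-endothelial antigen.

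Zeb2 is a zinc-finger transcription factor that mostly represses its targets and binds paired CACCT motifs, which form part of E-boxes. It is known from epithelial-to-mesenchymal transition and from the identity of sinusoidal endothelial cells, stellate cells and Kupffer cells. Endothelial cells, stellate cells, Kupffer cells and hepatocytes share the sinusoid and exchange paracrine signals. The labels name no litter and no day of isolation.

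Between 12872706 and 15690506 reads per library fell on genes, and 17214 of 47729 genes passed the filter on low counts and were tested. Values are normalised CPM, counts scaled to library size with TMM factors, and 3 counts, taken as the smallest level that can be shown, were between 0.143 and 0.407 CPM (counting error only). Each marker was set against its mean over the 4 libraries of its own cell type, and the median over a type's markers was taken in each library. This median was 79.2% to 126% in libraries of that type, which the mean itself includes, and at most 8.91% in the other types. The highest median in other types was that of hepatocyte markers in an EC library labelled WT. Single markers could lie higher, such as the endothelial marker Eng, at 1928 to 2455 CPM in HSC and 3094 to 6498 CPM in EC. The study counts its replicates in mice, but the labels tie no library to a mouse, and p-values measure the spread between these libraries. In bulk libraries fewer cells of a type and less RNA per cell cannot be told apart.

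Zeb2 (ENSMUSG00000026872, chromosome 2 from 44983632 to 45117395, reverse strand, GRCm38) was not lower under the KO label. In EC libraries it was at 78.6 and 73.7 CPM under the WT label and at 136 and 97.2 CPM under the KO label. In HSC libraries it was at 357 and 349.7 CPM under WT and at 432 and 361 CPM under KO. In KC libraries it was at 283 and 259.6 CPM under WT and 259.4 and 208 CPM under KO, and in HEP libraries at 6.401 and 2.56 CPM under WT and 5.30 and 1.22 CPM under KO. Both KO libraries were above both WT libraries in EC and HSC, both were below in KC, and the labels overlapped in HEP. The common log2 fold change was 0.05 (SE 0.26, adjusted p = 0.993), and its sign turned with single libraries left out. Reads were counted over whole genes, so that loss of the floxed exon alone cannot be read from these counts. The study reports an efficient endothelial deletion of Zeb2, by mRNA level and by the share of endothelial cells reached. These counts do not show it, and the groups are therefore named by their labels.

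The number in each library's label left the same remainder on division by 4 within a cell type, namely 2 in EC, 0 in HSC, 3 in KC and 1 in HEP. Read in runs of 4, the numbers form 8 runs, of which 3 hold WT libraries, 5 hold KO libraries and 0 hold both. WT libraries fell in run 8 (HSC, KC, HEP), run 9 (EC, HEP) and run 10 (EC, HSC, KC). KO libraries fell in run 2 (EC, HSC), run 5 (HSC), run 7 (KC, HEP), run 11 (KC, HEP) and run 12 (EC). By the study's methods all cell types were sorted or spun out of the same liver suspensions, but the labels do not say whether a run is a liver, and libraries of 1 run would then not be independent. As no run holds both labels, KO and WT libraries cannot be compared within a run. Only differences between runs of the same label can be told apart from the label.

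No gene passed an adjusted p-value of 0.05 for the common effect in edgeR's quasi-likelihood test with cell type as block. The calls came to 0% of the genes tested in the higher and 0% in the lower direction, and the smallest adjusted p was 0.739. At an unadjusted p under 0.05, 391 genes (2.27%) were higher and 710 (4.12%) lower under the KO label. Of those lower, 251 were hepatocyte-enriched, that is at least 10 CPM and at least 8 times higher in HEP than in the other libraries, against 2 of those higher. That is 35.4% of those lower, beside 6.69% of all genes tested (1151 of 17214). Of the 10272 genes with at least 1 CPM in every cell type, 1260 (12.3%) had an estimate of 1 sign in all 4, 622 higher and 638 lower. Equally likely and independent signs would give 12.5%. Signs were not independent for all genes, since all 20 hepatocyte markers were lower in EC and HSC and 0 were lower in KC. The 2 shares therefore do not show whether genes of 1 sign were in excess. Among the genes of 1 sign, 193 higher and 229 lower ones had an unadjusted p under 0.05.

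The number of calls depended on the tool and on the filter. DESeq2 with the same design called 12 genes higher and 12 lower, of which 10 and 7 were expressed and had 1 sign in all 4 cell types. Limma-voom called 0, with or without the run of 4 as block. Without the filter on low counts, edgeR called 98 genes higher and 619 lower, of which 467 were hepatocyte-enriched. In that fit the median prior degrees of freedom, the weight given to the shared estimate of the spread, went from 3.63 to infinity. The genes described next are those with the smallest p and 1 sign in all 4 cell types, and none of them passed the threshold in edgeR with the filter. Without it, 6 of the 10 did, namely Rps3a3, Alas2, Pctp, Gm4737, Ldhb and Gstm2.

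Mef2c, Clk4, Gstm2 and Ldhb had the smallest p among expressed protein-coding genes with higher estimates in all 4 cell types. Mef2c (ENSMUSG00000005583, chromosome 13 from 83504034 to 83667080, forward strand) encodes a MADS-box transcription factor of muscle, neural, endothelial and myeloid cells. In EC libraries it was at 105 and 99.4 CPM under WT and 155 and 167 CPM under KO. In HSC libraries it was at 27.0 and 26.1 CPM under WT and 32.7 and 40.7 CPM under KO. In KC libraries it was at 11.2 and 11.3 CPM under WT and 18.4 and 17.7 CPM under KO, and in HEP libraries at 1.52 and 1.28 CPM under WT and 2.12 and 3.93 CPM under KO. The labels did not overlap in any of the 4 cell types. The common log2 fold change was 0.69 (SE 0.13, adjusted p = 0.739), with 0.66 in EC, 0.47 in HSC, 0.68 in KC and 1.09 in HEP. In DESeq2 its adjusted p was 0.000262, and over all alternatives it ranged from that value to 0.998.

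Clk4 (ENSMUSG00000020385, chromosome 11 from 51261730 to 51281766, forward strand), a kinase of splicing factors of the SR family, had nearly the same estimate in each cell type. It was at 40.2 and 38.1 CPM under WT and 47.2 and 63.2 CPM under KO in EC, and at 35.6 and 45.7 CPM under WT and 58.0 and 55.7 CPM under KO in HSC. It was at 33.6 and 32.5 CPM under WT and 44.3 and 54.8 CPM under KO in KC, and at 39.5 and 37.4 CPM under WT and 48.8 and 54.0 CPM under KO in HEP. The labels did not overlap in any cell type. The common log2 fold change was 0.50 (SE 0.11, adjusted p = 0.739), between 0.42 in HEP and 0.58 in KC.

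Gstm2 (ENSMUSG00000040562, chromosome 3 from 107981702 to 107986453, reverse strand), a glutathione S-transferase of the mu class, also did not overlap between labels in any cell type. It was at 115 and 109 CPM under WT and 124 and 132 CPM under KO in EC, and at 186 and 204 CPM under WT and 324 and 334 CPM under KO in HSC. It was at 7.23 and 5.66 CPM under WT and 17.6 and 15.5 CPM under KO in KC, and at 92.2 and 113 CPM under WT and 130.1 and 213 CPM under KO in HEP. The common log2 fold change was 0.76 (SE 0.17, adjusted p = 0.739), with the lowest estimate in EC (0.19) and the highest in KC (1.36). Mu-class genes are close paralogs, so that the split of reads between them is uncertain.

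Ldhb, the lactate dehydrogenase subunit of heart-type isoenzymes, had a common log2 fold change of 0.82 (SE 0.18, adjusted p = 0.739). It was at 122 and 119.5 CPM under WT and 228 and 271 CPM under KO in EC, and the labels were also apart in KC and HEP, with estimates of 0.97 and 1.21. In HSC the labels overlapped, with 14.4 and 15.3 CPM under WT and 19.6 and 12.4 CPM under KO.

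Among lower estimates, Sh3bp5l, Alas2, Spg20, Gm4737 and Pctp had the smallest p. Sh3bp5l (ENSMUSG00000013646, chromosome 11 from 58330724 to 58347728, forward strand) is a relative of the SH3-domain binding protein Sh3bp5. It was at 37.2 and 37.3 CPM under WT and 24.2 and 16.4 CPM under KO in EC, and at 25.7 and 29.1 CPM under WT and 18.01 and 19.7 CPM under KO in HSC. It was at 21.6 and 20.4 CPM under WT and 16.8 and 10.8 CPM under KO in KC, and at 39.1 and 34.9 CPM under WT and 23.5 and 27.0 CPM under KO in HEP. The labels did not overlap in any cell type. Its common log2 fold change was -0.64 (SE 0.13, adjusted p = 0.739), between -0.88 in EC and -0.54 in HSC.

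Spg20, which encodes spartin, a protein of lipid droplets and endosomes, had a common log2 fold change of -0.71 (SE 0.16, adjusted p = 0.739). Its estimates lay between -0.93 in HSC and -0.45 in KC, and the labels overlapped only in KC, with 37.4 and 52.2 CPM under WT and 39.7 and 26.0 CPM under KO.

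Alas2, the erythroid form of the first enzyme of heme synthesis, was highest in HEP, at 268 and 496 CPM under WT and 46.7 and 36.1 CPM under KO. In HSC it was at 25.7 and 11.4 CPM under WT and 0.834 and 2.48 CPM under KO, and in EC at 22.8 and 25.4 CPM under WT and 8.80 and 3.69 CPM under KO. In KC the labels overlapped, with 34.2 and 17.3 CPM under WT and 15.3 and 31.6 CPM under KO. The common log2 fold change was -2.21 (SE 0.48, adjusted p = 0.739). Alas2 was hepatocyte-enriched, and EC and HSC are the cell types in which all 20 hepatocyte markers were lower under KO. With the hepatocyte marker level as a covariate its estimate was -1.77. The globin gene Hba-a1, another erythroid RNA, was between 3.30 and 6.11 CPM in the 4 HEP libraries, with a log2 fold change of 0.06 there against -3.20 for Alas2. In HSC, Hba-a1 was at 89.5 and 31.2 CPM under WT and 6.78 and 2.30 CPM under KO.

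Pctp, a phosphatidylcholine transfer protein, was at 89.5 and 102 CPM under WT and 6.47 and 11.9 CPM under KO in HEP. In HSC it was at 3.21 and 5.40 CPM under WT and 0.445 and 0.726 CPM under KO, and in KC at 22.8 and 35.8 CPM under WT and 18.6 and 8.62 CPM under KO. In EC the labels overlapped, with an estimate of -0.30. The common log2 fold change was -1.85 (SE 0.44, adjusted p = 0.769). Gm4737 had a common log2 fold change of -1.09 (SE 0.24, adjusted p = 0.739), and its labels did not overlap in EC and HSC. It too was hepatocyte-enriched, at 156 and 80.1 CPM in HEP libraries under WT against 3.91 and 6.22 CPM in EC. With the marker level as a covariate its estimate was -0.72.

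**Figure D1:**
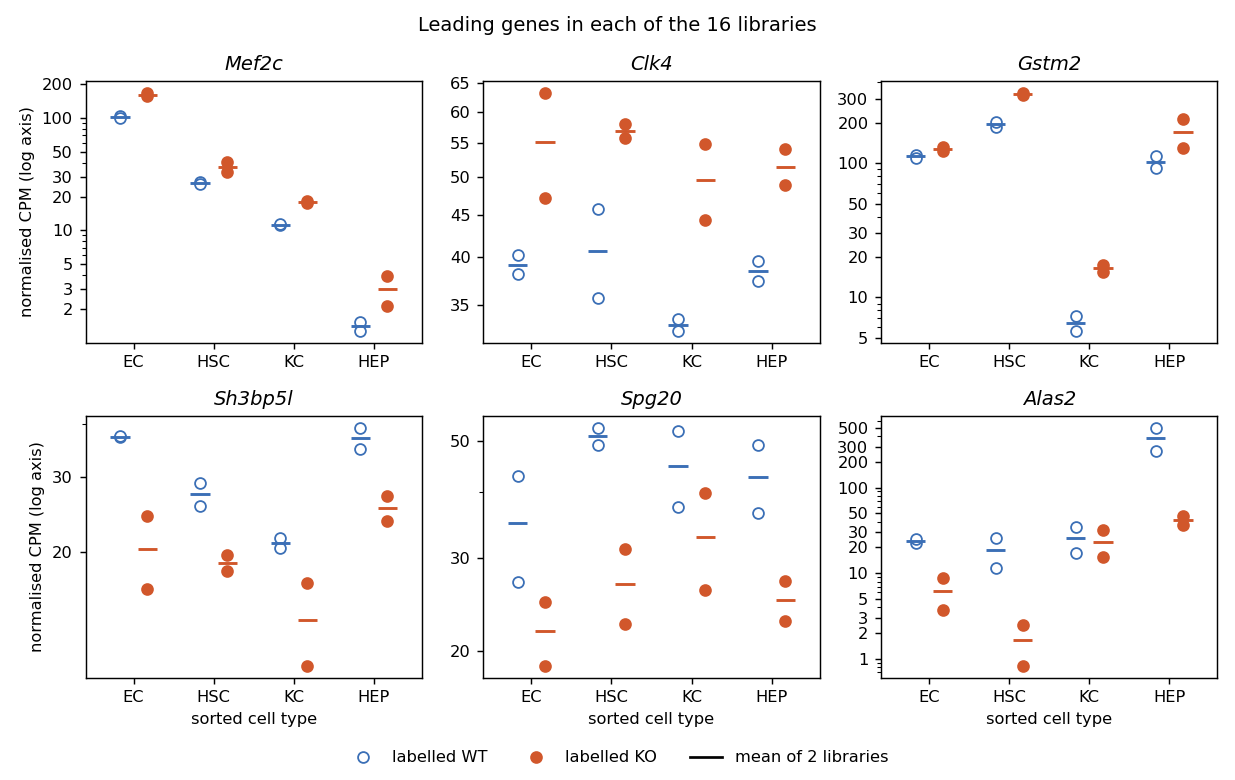
Normalised CPM (log axis) of 6 genes in the 16 libraries, by sorted cell type, with open points for WT and filled points for KO libraries and bars for the mean of 2 libraries. Mef2c, Clk4, Gstm2 and Sh3bp5l do not overlap between labels in any of the 4 cell types, while Spg20 and Alas2 overlap in KC.

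**Figure D2:**
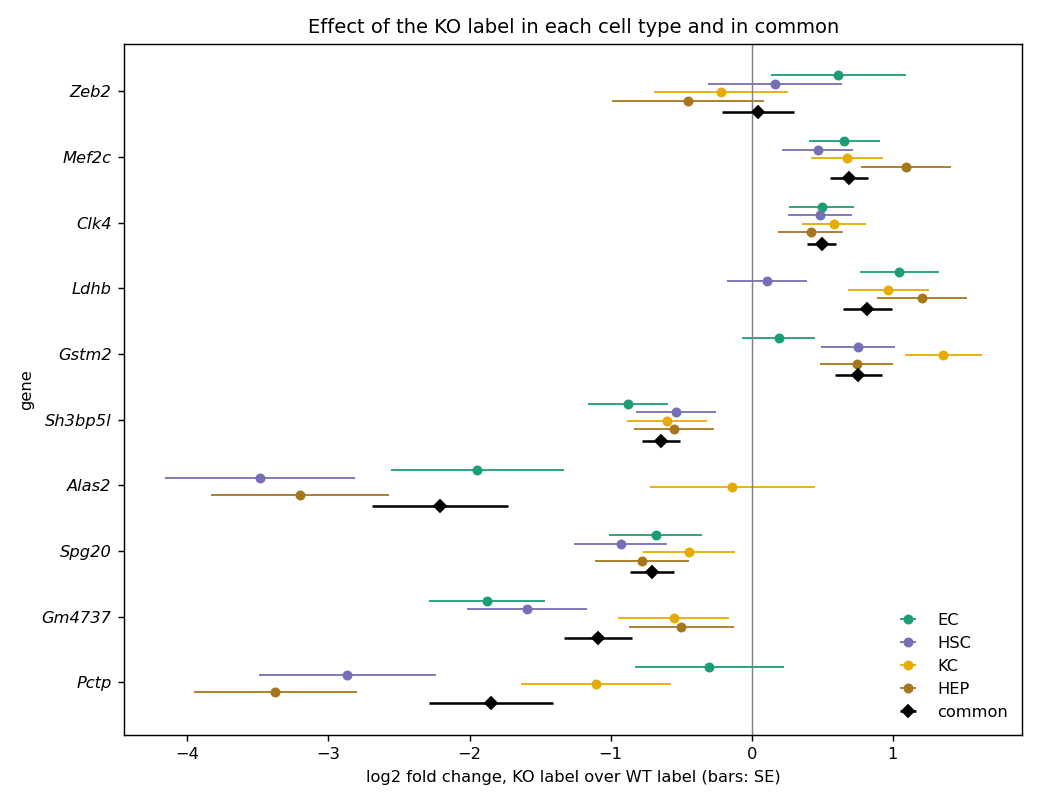
Log2 fold change of the KO over the WT label, with its SE, for Zeb2 and 9 genes in each cell type (circles) and in common (diamonds). Clk4 and Sh3bp5l have similar estimates in all 4 cell types, while the estimates of Alas2 and Pctp spread from near 0 to below -3.

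The half-site CACCT, which Zeb2 is known to bind, was looked for in the promoters of Mef2c, Clk4, Gstm2 and Sh3bp5l, which did not overlap between labels in any cell type. It was searched on both strands (AGGTG on the other) in RefSeq windows of 300 bases, and capitals mark it. It was found 0 times for Mef2c, 3 times for Clk4, 1 time for Gstm2 and 1 time for Sh3bp5l. Of the 32851 windows of this length, 51.9% hold CACCT at least once and 18.2% hold it 2 or more times. The E-box CACCTG, which contains CACCT, was found 0 times for Mef2c and 1 time for each of the others, and 20.2% of all windows hold this E-box. RefSeq gives 3 windows for Mef2c and 2 for Sh3bp5l, and the one nearest the annotated gene start is shown. Each window of Mef2c and Sh3bp5l held CACCT between 0 and 1 times. The only window of Clk4 lies inside the annotated gene, not at its annotated start. The windows are at chr13:83503784-83504083, chr11:51262864-51263163, chr3:107986371-107986670 and chr11:58330457-58330756 of GRCm38.p6, on the forward strand except that of Gstm2.
Mef2c: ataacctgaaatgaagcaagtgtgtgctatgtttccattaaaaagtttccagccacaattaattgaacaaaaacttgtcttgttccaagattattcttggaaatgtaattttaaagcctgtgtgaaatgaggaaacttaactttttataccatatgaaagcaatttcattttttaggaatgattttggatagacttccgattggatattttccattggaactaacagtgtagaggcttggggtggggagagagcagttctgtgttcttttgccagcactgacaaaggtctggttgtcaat
Clk4: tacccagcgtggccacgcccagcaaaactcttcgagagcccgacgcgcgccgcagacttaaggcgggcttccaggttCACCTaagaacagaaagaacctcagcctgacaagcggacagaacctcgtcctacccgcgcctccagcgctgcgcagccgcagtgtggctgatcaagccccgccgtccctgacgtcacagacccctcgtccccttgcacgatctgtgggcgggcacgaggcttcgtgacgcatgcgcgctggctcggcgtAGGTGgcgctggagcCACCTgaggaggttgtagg
Gstm2: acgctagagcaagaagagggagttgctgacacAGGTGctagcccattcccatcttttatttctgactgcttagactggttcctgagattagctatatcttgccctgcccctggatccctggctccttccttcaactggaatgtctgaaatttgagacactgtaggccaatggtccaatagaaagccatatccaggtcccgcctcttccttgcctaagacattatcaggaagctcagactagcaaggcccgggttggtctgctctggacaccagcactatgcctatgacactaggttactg
Sh3bp5l: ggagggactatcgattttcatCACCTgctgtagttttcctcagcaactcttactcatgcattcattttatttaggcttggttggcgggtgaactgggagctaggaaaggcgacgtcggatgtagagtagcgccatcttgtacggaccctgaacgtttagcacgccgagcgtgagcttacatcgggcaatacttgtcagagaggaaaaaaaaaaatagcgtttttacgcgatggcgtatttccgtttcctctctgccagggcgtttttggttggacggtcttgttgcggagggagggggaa

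In 36 genes the KO and WT libraries did not overlap in any of the 4 cell types, 29 higher (0.168% of the genes tested) and 7 lower (0.0407%). This count was added after the values had been seen, and whether it exceeds what unrelated cell types would give was not tested. Within 1 cell type non-overlap was common, in 44.8% of the genes tested in EC, 37.7% in HSC, 33.1% in KC and 32.9% in HEP. Of these genes, 28 had at least 1 CPM in every cell type, 24 higher and 4 lower, with common log2 fold changes between 0.22 and 1.22 in size. The 4 lower ones were Sh3bp5l, Supt6, Cbx8 and Scnn1a. Supt6, a histone chaperone of transcription elongation, had -0.42 (SE 0.17), and Scnn1a, a subunit of the epithelial sodium channel, -1.12 (SE 0.29). Among the higher ones, Hexim1, an inhibitor of the elongation factor P-TEFb, had 0.71 (SE 0.17), and Sertad1, a regulator of E2F and cyclin-dependent kinase activity, 0.97 (SE 0.23). Wwtr1, the Hippo pathway coactivator TAZ, had 0.59 (SE 0.14), and Rbbp6, a ubiquitin ligase tied to mRNA 3' processing, 0.71 (SE 0.20). Smg9, of nonsense-mediated decay, had 0.41 (SE 0.14), and Hnrnph3, a splicing regulator, 0.25 (SE 0.10). The adjusted p of each was 0.769.

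Sertad1 illustrates the spread within a label. It was at 126 and 81.0 CPM under WT and 176 and 231 CPM under KO in EC, and at 129.0 and 75.3 CPM under WT and 129.4 and 190 CPM under KO in HSC. In KC it was at 67.4 and 23.0 CPM under WT and 67.8 and 97.4 CPM under KO. In HSC and KC the lower KO library thus lay within 1 CPM of the higher WT library, although the labels did not overlap.

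Rps3a3 had one of the smallest p-values, a common log2 fold change of 5.38 (SE 1.07, adjusted p = 0.739) and higher estimates in all 4 cell types, but its values followed the runs of label numbers, and 3 of the 8 libraries labelled KO were as low as WT. It is a processed pseudogene of 795 bases (ENSMUSG00000059751, chromosome 13 from 108670603 to 108671397, forward strand, within Pde4d). Over its whole length it differs from the mRNA of the ribosomal protein gene Rps3a1 at 9 positions (98.87% identity). A window of 150 bases, from base 214 to base 363 of Rps3a3, is shown with its 3 differences from Rps3a1 in capitals, since reads of both genes differ at few bases.
Rps3a3: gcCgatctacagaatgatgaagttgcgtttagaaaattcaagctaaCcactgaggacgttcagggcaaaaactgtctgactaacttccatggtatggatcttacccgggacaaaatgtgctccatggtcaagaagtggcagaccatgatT
Rps3a1: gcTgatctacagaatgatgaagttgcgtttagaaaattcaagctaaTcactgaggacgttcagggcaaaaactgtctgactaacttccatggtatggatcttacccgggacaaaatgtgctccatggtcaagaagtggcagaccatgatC

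Rps3a3 was at 21.1 and 46.2 CPM in the EC libraries labelled KO, at 18.3 and 0.182 CPM in those of HSC, at 24.4 and 0.359 CPM in those of KC and at 25.5 and 0.407 CPM in those of HEP. In the 8 WT libraries it was at no more than 1.28 CPM, near the level of 3 counts, so that the fitted fold change depends on the prior count. The 5 high libraries were those of runs 2, 7 and 12, and the 3 low KO libraries those of runs 5 and 11. Rps3a1 was between 38.2 and 128 CPM in all libraries, with a common log2 fold change of -0.27 (SE 0.18, adjusted p = 0.808).

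Other genes were split in the same manner. Of 1150 genes with a gap of at least 8 times between their high and low libraries, chosen after the values had been seen, 1037 followed cell type, 11 followed the runs and 102 followed neither. Of the 11, 8 had at least 2 libraries on both sides of the gap, and 3, among them Btnl9, set 1 library apart. Vcp-rs, a pseudogene on chromosome X with 99.67% identity to Vcp over the aligned bases, was between 29.7 and 55.1 CPM in the 7 libraries of runs 8, 9 and 11, and at no more than 0.485 CPM in the others. Those 7 comprised 5 WT and 2 KO libraries. Gm11814, a pseudogene on chromosome 4, was at no more than 0.407 CPM in runs 10 and 11 and at 5.56 CPM or more in the others. Chit1, a chitinase, was at 100.01 and 46.0 CPM in the EC and HEP libraries of run 9 and at no more than 0.222 CPM elsewhere. Igfbp1, a hepatocyte-secreted binding protein of insulin-like growth factors, was at 0.285 and 0.278 CPM in the EC and HSC libraries of run 2 and at 5.08 CPM or more in all others. Btnl9, a butyrophilin-like gene, had the smallest p of all genes tested (6.30e-05) and was at 169 CPM in 1 EC library labelled KO, at 2.09 CPM in the other and at no more than 1.92 CPM in the rest.

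**Figure D3:**
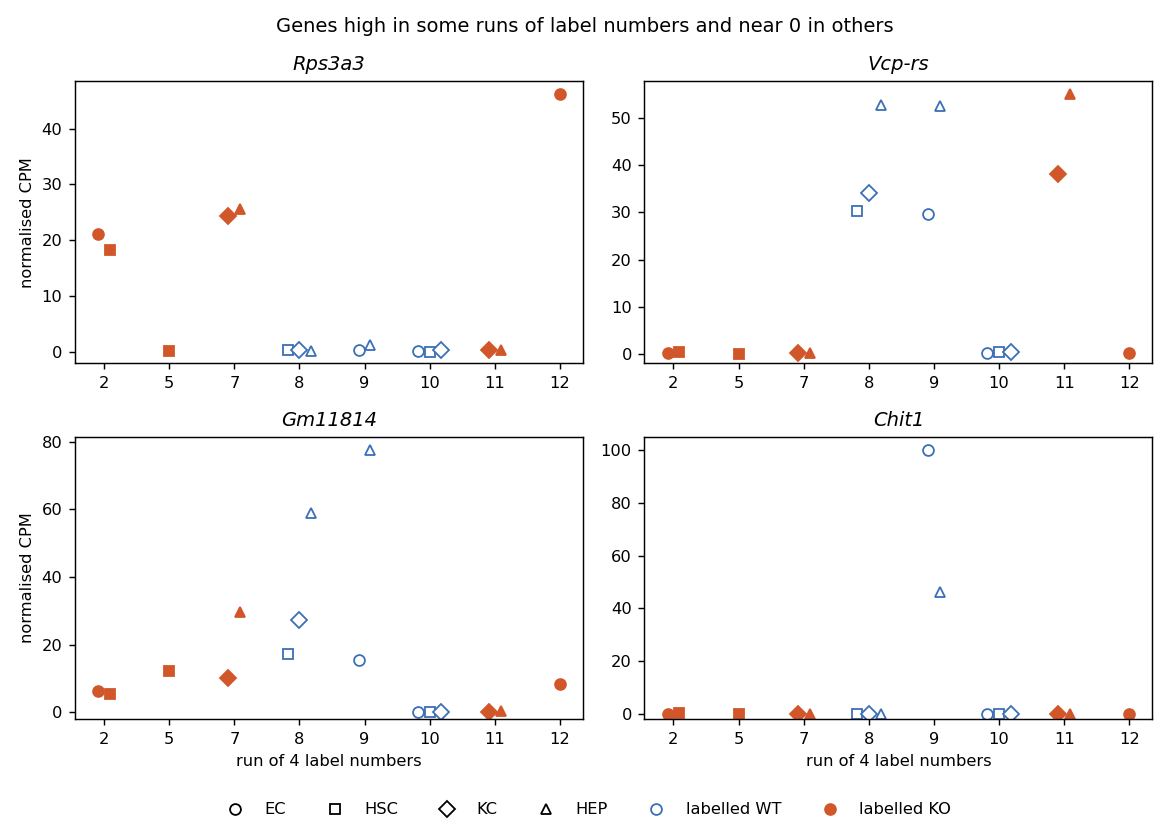
Normalised CPM of Rps3a3, Vcp-rs, Gm11814 and Chit1 in the 16 libraries, by run of 4 label numbers, with the marker's shape for the cell type and filled points for the KO label. These genes were chosen because they follow the runs, so that libraries of 1 run are together high or together near 0. Runs 5 and 12 hold 1 library each, and Rps3a3 is high in 3 of the 5 runs labelled KO.

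More genes were called within EC and within HSC than in common. In EC, 9 genes (0.0523%) were higher and 414 (2.41%) lower at an adjusted p under 0.05, and 361 of the lower ones (87.2%) were hepatocyte-enriched, beside 6.69% of all genes tested. In HSC, 2 genes (0.0116%) were higher and 176 (1.02%) lower, and 163 of the lower ones (92.6%) were hepatocyte-enriched. No gene was called in KC (0%) or HEP (0%) by edgeR, where 1416 and 1083 genes had an unadjusted p under 0.05. DESeq2 called 222 and 64 genes there. EC and HSC shared 141 called genes, 140 of them lower in both. Of the genes called in EC, 20 (4.73%) had the same sign in the other 3 cell types, and of those called in HSC, 6 (3.37%) did, beside 11.1% of all genes tested (1907 of 17214).

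The number of calls in EC and HSC depended on which library was left out. The count in EC did not fall without EC WT 34, nor that in HSC without HSC WT 32 or HSC KO 20. Each fit without a library leaves a group without a replicate, those whose count fell and those whose count did not. Why the counts given next fell was not tested. Without the EC library KO 46, KO 6 or WT 38, the 423 calls in EC fell to 0, 10 or 14, and without the HSC library KO 8 or WT 40 the 178 calls in HSC fell to 32. Without KC KO 27, 164 genes were called in KC.

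Hepatocyte markers moved with these calls. The 20 markers were all lower in EC, with a median log2 fold change of -2.94 and 19 called, and all lower in HSC, with a median of -2.66 and 12 called. In KC, 0 of 20 were lower (median 0.56), and in HEP 6 of 20 (median 0.13), with 0 called. Their summed level was 14917 and 29610 CPM in EC under WT and 3086 and 2633 CPM under KO, and in HSC 5107 and 11256 CPM under WT and 763 and 2052 CPM under KO. In KC it was 10175 and 12447 CPM under WT and 14180 and 17860 CPM under KO. Pck1, the enzyme that commits carbon to gluconeogenesis, was at 385 and 477 CPM under WT and 29.1 and 25.4 CPM under KO in EC, against 3371 and 7491 CPM under WT and 5687 and 4539 CPM under KO in HEP. With hepatocyte-enriched genes left out, 11 genes were called in EC and 1 in HSC, but this step itself removes most of the called genes. With the hepatocyte marker level as a covariate 0 were called in either. The summed marker level did not overlap between labels in EC, HSC or KC, with KO below WT in EC and HSC and above WT in KC. With 2 libraries per group the covariate and the label can therefore hardly be told apart there, and neither fit shows what lies behind the calls.

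**Figure D4:**
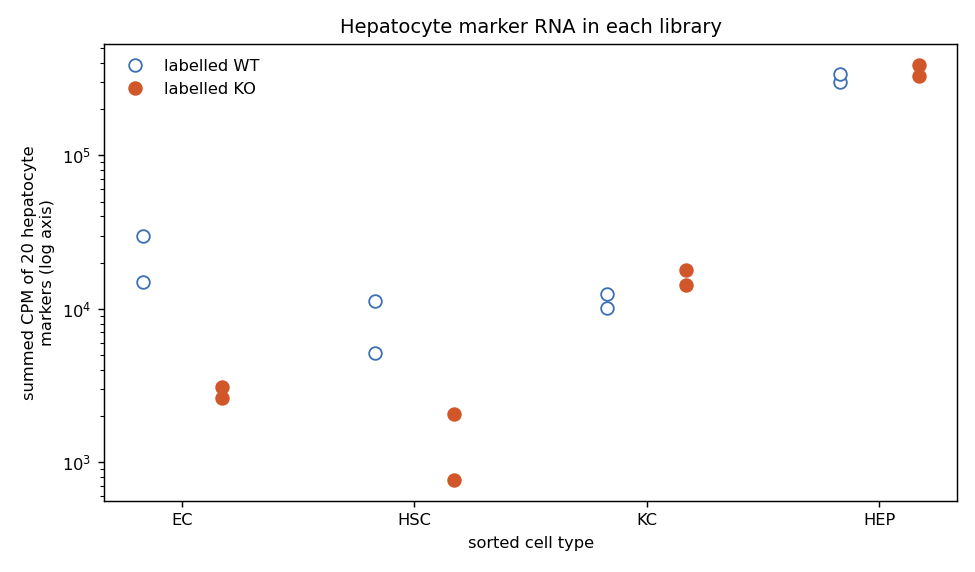
Summed CPM of 20 hepatocyte markers (log axis) in each library, by cell type, with open points for WT and filled points for KO libraries. KO libraries lie below WT libraries in EC and HSC and above them in KC.

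The effect differed between cell types, by the test of the 3 interaction terms together, in 202 genes (1.17%), of which 166 (82.2%) were hepatocyte-enriched. Of the 202, 170 were lower in EC and HSC and higher in KC. The count was 3 without hepatocyte-enriched genes, 0 with the marker level as covariate and 0 without the KC or the HEP libraries, and it fell to 13 without EC KO 46. None of the 10 leading genes passed this test, with adjusted p-values of the difference between 0.156 for Pctp and 1 for Clk4. This does not show that their effects were alike, and estimates lay between -3.38 in HEP and -0.30 in EC for Pctp and between -3.49 in HSC and -0.14 in KC for Alas2.

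Each of the 35 gene lists had 0 members past the threshold of the common effect, and lists are given by their members at an unadjusted p under 0.05, beside 2.27% higher and 4.12% lower over all genes tested. Immediate early genes, which respond within minutes to stimuli and to cell handling, had estimates below 0 in 18 of 22 members, with a median of -0.48 against -0.03 over all genes tested. At this unadjusted p, 8 were lower and 0 higher. Klf2, a flow-responsive factor of endothelium, had -1.11 (SE 0.28, adjusted p = 0.769). In EC it was at 567 and 415 CPM under WT and 186 and 341 CPM under KO, and in KC at 246 and 215 CPM under WT and 115 and 74.8 CPM under KO. In HEP it was at 10.1 and 9.74 CPM under WT and 3.18 and 0.950 CPM under KO, and the labels overlapped in HSC. DESeq2 called it (adjusted p = 0.0311). Zfp36, which promotes decay of cytokine mRNAs, had -0.76 (SE 0.20), and Egr2, a zinc-finger factor, -0.83 (SE 0.22), with negative estimates in all 4 cell types.

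T and NK cell markers were below 0 in 10 of 10 members (median -1.29), with 4 at this unadjusted p. Their medians were -1.48 in EC and -2.50 in HSC but -0.11 in KC and -0.49 in HEP, and 4 had 1 sign in all cell types. Neutrophil markers were above 0 in 8 of 9 members (median 1.02), with a median below 0 in EC and of 2.92 in KC. Their summed level in KC was 24.4 and 20.3 CPM under WT and 252 and 21.6 CPM under KO. Only KC KO 27 was thus above the WT libraries of KC. In HEP the summed level was 4.23 and 5.90 CPM under WT and 30.3 and 11.4 CPM under KO, and in EC and HSC the labels overlapped. The summed level of T and NK markers was between 1.75 and 154 CPM. Acute phase genes (6 lower of 15) and targets of PPAR-alpha, which drives fatty acid oxidation (5 lower of 12), had medians of -2.70 and -2.92 in EC but 0.23 and 0.12 in KC. Their medians were -1.79 and -1.58 in HSC. In HEP the lists differed, with medians of -0.09 for acute phase genes and -1.02 for PPAR-alpha targets. Of these lists, 11 and 7 members were hepatocyte-enriched. Cpt1a, the gate of mitochondrial fatty acid import, had -0.55 (SE 0.21), with -1.03 in HEP.

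In the integrated stress response 2 of 12 genes were higher, Trib3 with 2.56 (SE 0.75) and its regulator Atf4 with 0.43 (SE 0.14). Atf4 was at 199.975 and 182 CPM under WT and 289 and 319.9 CPM under KO in EC, and at 129 and 115 CPM under WT and 174 and 211 CPM under KO in HEP. The labels overlapped in HSC and KC. Cell cycle genes were above 0 in 17 of 20 members (median 0.38), beside 7991 of the 17214 genes tested. Their median was 0.68 in EC, 0.35 in KC and 0.11 in HEP but -0.38 in HSC, and 3 were higher at this unadjusted p, among them the replication factors Mcm5 (0.72, SE 0.30) and Pcna (0.30, SE 0.13). Of 19 genes of antigen presentation, 3 were lower, among them Ciita, the master regulator of class II genes, with -1.33 (SE 0.39). Of 76 ribosomal protein genes 57 were above 0, with a median of 0.05 and 0 at this unadjusted p.

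Among 11 genes of the Zeb, Snail and Twist factors and their junctional targets, Snai1 (0.54, SE 0.24) and Snai2 (0.51, SE 0.22) were higher and the cadherins Cdh2 (-1.30, SE 0.43) and Cdh1 (-1.55, SE 0.71) lower at this unadjusted p. Cdh2, N-cadherin, was at 5.56 and 6.87 CPM under WT and 0.333 and 0.311 CPM under KO in EC, and at 91.8 and 75.5 CPM under WT and 45.4 and 40.7 CPM under KO in HEP. In KC its labels overlapped, with an estimate of -0.25. In the EC libraries the median hepatocyte marker stood at 4.52% and 8.91% of its mean HEP level under WT and at 0.867% and 0.749% under KO. Whether the EC values of Cdh2 come from hepatocyte RNA was not tested. Cdh1, E-cadherin, was hepatocyte-enriched, and in HSC it was at 4.54 and 8.996 CPM under WT and at 0 in both KO libraries. Its estimate was 0.17 in KC and -0.35 in HEP. The effect differed between cell types for both cadherins, with adjusted p-values of the interaction of 0.0470 for Cdh2 and 0.0361 for Cdh1. In TGF-beta and BMP signalling 0 of 23 genes reached this p.

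Genes near Zeb2, near Cdh5, whose promoter drives the Cre, and near the Rosa26 reporter were counted at the same unadjusted p. Within 10 Mb of Zeb2, 2 of 78 genes were higher and 4 lower. Within 10 Mb of Cdh5, 3 of 183 were higher and 10 lower. Within 10 Mb of Rosa26, 6 of 149 were higher and 9 lower, and Il17rc, Usp18 and M6pr did not overlap between labels in any cell type, beside 0 genes in the other regions and 36 of all genes tested (0.209%). Il17rc, a subunit of the interleukin 17 receptor, had 0.56 (SE 0.17), with 48.7 and 29.0 CPM under WT and 49.2 and 54.9 CPM under KO in EC. The medians of the 3 regions lay between -0.04 and 0.

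**Figure D5:**
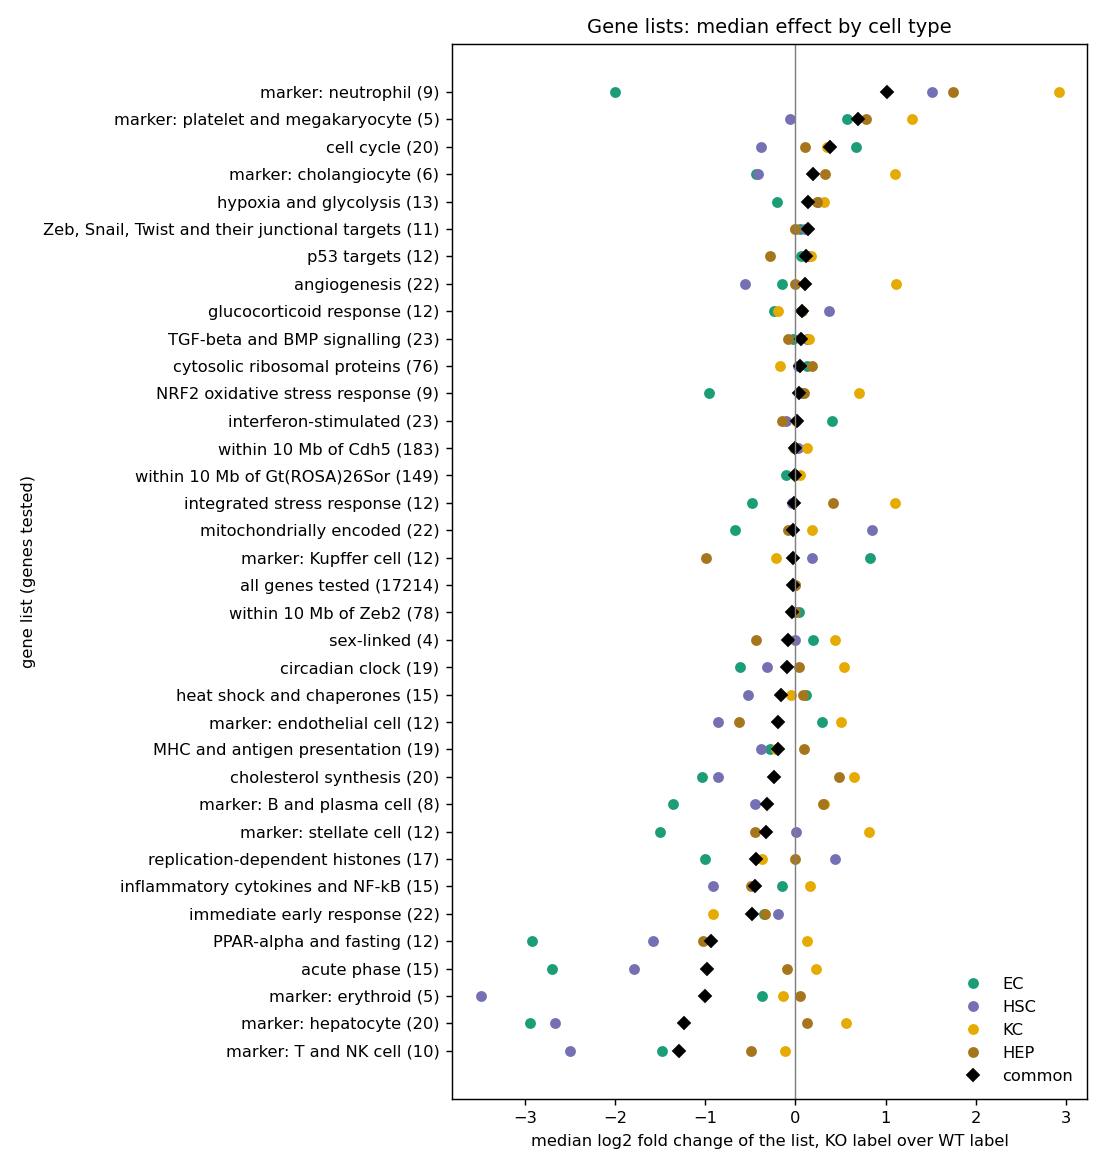
Median log2 fold change of the KO over the WT label for the 35 gene lists and for all genes tested, in each cell type (circles) and in common (diamonds), with the number of genes tested in brackets. Hepatocyte markers have medians of -2.94 in EC and -2.66 in HSC but 0.56 in KC, and the all-gene medians lie between -0.03 and 0.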

How the data were processed

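RNA was sequenced from 16 libraries. The authors deposited raw counts, the number of reads per Ensembl gene, without normalization. The submitters' processing notes name Trimmomatic 0.32, HISAT2 2.1.0, HTSeq 0.9.1 and GRCm38. The annotation release and the strand setting are not given in the sources used here, and the descriptions of series and samples name different library preparations. Positions were taken from GENCODE M21, which holds 98.9% of the identifiers, and promoters from RefSeq (GRCm38.p6). HTSeq's summary lines were left out of all totals.

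Counts were filtered with filterByExpr, scaled by TMM and tested with edgeR 4.0.16 in R 4.3.3 by the quasi-likelihood test, with cell type as block for the common effect and 1 mean per group for effects within a cell type and their interaction. Benjamini-Hochberg adjusted p-values under 0.05 were called. Standard errors were derived from the F statistic. The script was tested on simulated data. Alternatives used DESeq2 1.42.0, limma 3.58.1, other scaling, filters and thresholds, and fits without a cell type or a library. Named genes were Zeb2, the 5 higher and 5 lower genes with the smallest p, 1 sign and at least 1 CPM in all cell types, and up to 4 members of each of 35 lists by smallest p. Members and lists were chosen with earlier results of these data known. Sequences were aligned with Biopython 1.88. Plots were drawn with matplotlib 3.10.9.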

Additional observations from a re-analysis of the deposited data

Results flagged for a closer look

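The effect of the KO label differed between the 4 cell types in 202 genes by the interaction test, and in 13 of the 20 hepatocyte markers. These were flagged because the effect was tested to differ between cell types. The markers had median log2 fold changes of -2.94 in EC, -2.66 in HSC, 0.56 in KC and 0.13 in HEP. With 2 libraries per group, single libraries were not tested for standing apart from their group.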

How the results depend on the processing

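With single libraries left out, the common effect gave between 0 and 1 genes higher and 0 lower, the non-overlap count between 31 and 98 higher and 13 and 99 lower, the difference between cell types between 13 and 300, and the calls between 0 and 465 in EC, 32 and 239 in HSC, 0 and 164 in KC and 0 and 3 in HEP. The 1 gene was called without EC KO 6. A group with 1 library is assumed to vary like the others.

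Without a filter on low counts the common effect gave 98 higher and 619 lower genes, 19 and 83 of them expressed and of 1 sign in all cell types, 1776 differing, and 1158, 903, 422 and 302 in EC, HSC, KC and HEP. DESeq2 gave 12 and 12, 10 and 7, 1174, and 933, 566, 222 and 64, with 11 non-overlapping lower. An unadjusted p under 0.05 gave 391 and 710, 193 and 229, 1826, and 1793, 1303, 1416 and 1083. An adjusted p under 0.1 gave 409 differing, 322 in HSC and 2 in HEP. With at least 10 counts in every library 353 differed and 3 did not overlap and were lower. RLE size factors gave 11 non-overlapping lower genes. Over genes expressed in all cell types, 321 differed and 4 did not overlap and were lower. Without hepatocyte-enriched genes 3 differed, with 11 called in EC and 1 in HSC, and with the marker level as covariate 0, 0 and 0. Non-overlap in the remaining 3 cell types was found in 73 higher and 57 lower genes without EC, 97 and 52 without HSC, 284 and 359 without KC, and 82 and 53 without HEP, as fewer groups have to be apart. The difference between cell types was 9 without EC, 0 without KC and 0 without HEP, with 1 gene in HEP without KC, and 160 in EC and 52 in HSC without HEP. Limma-voom gave 367 differing, 52 in HSC and 13 in KC, and with the run of 4 as block 371, 52 and 12, at a correlation within runs of 0.0018. The causes of these changes were not tested.

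Zeb2 turned to -0.23 with the marker level as covariate and to -0.16 without EC, and lay between -0.052 and 0.23 with single libraries left out. The 10 leading genes kept their sign under the alternatives in which they were tested. Alas2 and Gm4737 were not tested without hepatocyte-enriched genes, nor Rps3a3 and Pctp at 10 counts in every library. DESeq2 called all 10, and edgeR without the filter 6. The non-overlap and cell type counts and the restriction to genes expressed in all cell types were alternatives added after seeing the data. No paired analysis of KO with WT libraries was possible because no run holds both labels, and the run entered only as a block in limma. Levels under 0.143 to 0.407 CPM could not be shown.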

Other observations

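Among the other gene lists, again with no gene past the threshold of the common effect, angiogenesis genes had 2 of 22 members higher and 1 lower at an unadjusted p under 0.05. Rgcc, a regulator of the cell cycle in endothelium, had a common log2 fold change of 1.32 (SE 0.38) and was at 10.2 and 9.53 CPM under WT and 33.5 and 49.9 CPM under KO in EC. In KC it was at 2.99 and 4.47 CPM under WT and 12.4 and 9.46 CPM under KO, while in HSC the labels overlapped. Angpt2, a ligand of the Tie2 receptor, had 1.38 (SE 0.50), and Flt4, the VEGF receptor of lymphatic and sinusoidal endothelium, -0.75 (SE 0.26).

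Adm, the vasodilator adrenomedullin, had 0.63 (SE 0.17), with 51.3 and 30.6 CPM under WT and 95.0 and 96.2 CPM under KO in EC, and its labels overlapped in HSC. Of 15 heat shock genes, 1 was higher and 2 were lower at this p. Cryab, a small heat shock protein of stellate cells, had 0.81 (SE 0.23), with 95.4 and 100.4 CPM under WT and 122 and 145 CPM under KO in HSC. Of 23 interferon-stimulated genes, 12 were above and 11 below 0 (median 0.02). At this p, 1 was lower and 3 were higher, Ifi44 (1.03, SE 0.35), Rsad2 (0.73, SE 0.31) and Usp18 (0.61, SE 0.27). March8, a ubiquitin ligase within 10 Mb of the Rosa26 locus, had -0.63 (SE 0.16), with labels that overlapped in KC alone.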
